A study of Mus musculus with 12 samples.

Results

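Double-strand break repair and the checkpoint that accompanies it were examined through 46 genes, taken by gene name from a table of 35999 genes. The libraries came from LSK cells, mouse bone marrow cells that lack lineage markers and carry Sca-1 and KIT, among which are the hematopoietic stem cells and multipotent progenitors. Each label, WT and Fancg KO, had 6 libraries from as many mice, and the mice of the KO group are described as homozygous for a Fancg knockout. No further allele, agent, age or sex is given for either group in the sources used here, and the bulk RNA of a sort cannot separate fewer cells of a type from less RNA per cell. Libraries are called by label and by the replicate number in their title, which runs from 2 to 7 under both labels.

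Fanconi anemia proteins act on DNA strands that are crosslinked to each other, and FANCG is a subunit of the core complex that starts this repair. The incision of a crosslink leaves a double-strand break, which is passed to homologous recombination. In that route the MRN complex senses the break, resection enzymes turn its ends into single strands, replication protein A (RPA) coats them, and BRCA1, PALB2 and BRCA2, helped by RAD51B, RAD51C, RAD51D, XRCC2 and XRCC3, prepare them for the invasion of an intact copy. Helicases and a topoisomerase then take the joint molecules apart. Chromatin factors such as 53BP1 hold back resection in favour of end joining, and the kinases ATM and ATR stop the cell cycle while repair goes on. The 46 genes were put in 9 groups by these roles.

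Promoter letters, which had no part in the choice of the genes, were found in some of them. RefSeq windows of GRCm38.p6, from 250 bases before to 50 bases after a start, were matched for 33 of the 46 genes. The windows of Rad51d, Xrcc2, Rad54b, Rad50, Nbn, Rbbp8, Exo1, Wrn, Top3a, Rmi2, H2afx, Rif1 and Prkdc were not matched. The letters TTCCCGC and the letters TTGGCGC, which are forms of the site that E2F factors of the cell cycle bind, were searched on both strands, and at least one of them was found in 18 of 33 genes (54.5%), against 7.79% of 27025 genes with a window and 14.98% of the 6918 among them that passed the filter on low values described below. TTCCCGC was found in 14 of the 33 (42.4%, against 5.29% of all genes and 10.34% of those past the filter) and TTGGCGC in 5 (15.2%, against 2.85% and 5.52%). CCAAT, the letters bound by NF-Y, was found in 19 (57.6%, against 41.1% and 43.5%), and TTTGAA, a form of the element that represses genes outside G2 and M phase, in 4 (12.1%, against 20.2% and 15.1%). Matches of different motifs overlapped only in the window of Rnf8. The letters were chosen after the members' sequences had been seen, were not tested, and do not show that a factor was bound.

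Sites of the 3 RPA genes are shown because Rpa2 alone of the 40 genes past the filter had an unadjusted limma p under 0.05. This was 2.5% of the 40, beside 3.67% of all genes tested, and the adjusted limma p of Rpa2 was 0.9996. Of the 6 genes under the filter, Xrcc4 had an exact permutation p of 0.0346. Among all genes with a mean signal from 1 to under 10, 4.2% had an exact permutation p under 0.05. Capitals mark these letters or their reverse complements, and 11 bases are given on each side, read 5′ to 3′ on the strand of the gene (GRCm38.p6). Rpa1 had CCAAT 42 bases before its RefSeq start, Rpa2 had its CCAAT sites 231, 84 and 52 bases before the start and TTCCCGC 37 bases before it, and Rpa3 had CCAAT 86 and 55 bases and TTGGCGC 29 bases before the start.
Rpa1 CCAAT, chr11:75348410-75348436, minus strand: ccgcgcggtagCCAATgcggtggctat
Rpa2 first CCAAT, chr4:132768118-132768144, plus strand: gtatcgttttgATTGGttgttttcttg
Rpa2 next CCAAT, chr4:132768265-132768291, plus strand: catgagttctgATTGGctgaaggtaaa
Rpa2 last CCAAT, chr4:132768297-132768323, plus strand: ccagggcgctgATTGGctgtcccttcg
Rpa2 TTCCCGC, chr4:132768312-132768340, plus strand: gctgtcccttcGCGGGAAggagtttgtgg
Rpa3 first CCAAT, chr6:8259212-8259238, minus strand: ccgtggatttgATTGGtgggtctggag
Rpa3 next CCAAT, chr6:8259181-8259207, minus strand: cgtctcctctgATTGGtgttcgggaaa
Rpa3 TTGGCGC, chr6:8259153-8259181, minus strand: atctgcccgggTTGGCGCggccgcccgct
Rpa1 held CCAAT but neither TTCCCGC nor TTGGCGC in its window, whereas Rpa2 and Rpa3 each held an E2F-like site closer to the start than their CCAAT letters.

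In 13 of the 18 genes an E2F-like site lay upstream of the RefSeq start with its 11 bases on each side, from 208 bases (Bard1) to 24 bases (Rnf8) before it. The site nearest to the start in each of the other roles that had one is shown, so that the variety of the flanks can be seen.
Brca2, chr5:150522442-150522470, plus strand: tttaggccacaGCGGGAAacagacacaca
Rad51c, chr11:87405005-87405033, minus strand: cgcgcgcgtggGCGCCAAccactccctac
Rad52, chr6:119902555-119902583, plus strand: ttgctgcggctGCGGGAAggctgatcgcc
Topbp1, chr9:103305184-103305212, plus strand: cgtccgctcggTTGGCGCgaaagtcggtt
Rnf8, chr17:29614754-29614782, plus strand: cacctgcgcacTTCCCGCccgcctcccgc
Xrcc6, chr15:82016312-82016340, plus strand: agggggtggaaGCGGGAAatgcgagtggg

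The values are the deposited signal, an estimated read count divided by 1 size factor per library. The libraries held about 1235110 to 2471420 reads, so genes of low signal rest on few reads. The targeted gene did not separate the labels: Fancg signal had a lowest, median and highest value of 4.76, 8.59 and 24.1 in WT and of 4.46, 7.91 and 14.5 in KO (two-sided exact permutation test, p = 0.636), so KO below means the libraries labelled KO. Zmat3, the gene named in the title of the study, was higher in each KO library than in any WT library (log2 fold change 0.99). The summed signal of 4 Y-linked genes was 26.6 in WT replicate 3 and 49.7 in KO replicate 7 and ran from 189 to 435 elsewhere, and the values of Palb2, Brca1 and Xrcc2 are also given without one or both of these libraries. Lars2 held 15.6 to 36.2% of the signal of a library. LSK markers were present, with a summed signal of 1173 to 2051 over 10 genes. Erythroid and lymphoid markers were lower: the sum was 7.47 to 34.0 for 8 erythroid genes (Hba-a1, Hba-a2 and Hbb-bt had means under 1), 29.6 to 82.2 for 6 T and NK cell genes (Trac was at 0 throughout), and 38.2 to 299 for 7 B cell genes. The 10 granulocyte and monocyte genes were not low as a set: they summed to 331 to 2037 in WT and 444 to 2211 in KO. S100a8, S100a9, Ltf, Camp and Ngp had means under 1, so most of this sum came from Elane, Mpo, Prtn3, Csf1r and Ly6c2.

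All 46 genes had a signal above 0 in all 12 libraries. Their mean signal ran from 1.33 (Nhej1) to 232 (Rif1), and 40 of them passed the filter, a mean signal of at least 10, which 8887 genes passed. Brip1, Xrcc3, Chek2, Xrcc4, Lig4 and Nhej1 did not. The summed signal of the 46 genes was 2156, 2265 and 2405 (lowest, median, highest) in WT and 2067, 2375 and 2473 in KO, so the groups overlapped over most of their range.

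To compare levels between genes, the signal was divided by the length in kilobases of the principal GENCODE M21 transcript of each gene. On this per-kilobase scale H2afx, which encodes the histone variant phosphorylated around breaks, had the highest median level at 90.8 (range 57.6 to 151 over 12 libraries). Atrip, the partner of ATR, followed at 40.5 (20.3 to 49.7), then Rpa3 at 30.2 (17.6 to 44.2), Rif1 at 27.2 (20.7 to 34.3) and Wrn at 25.5 (19.6 to 29.2). The range of H2afx did not overlap that of Atrip, and it was the only gene separated in this way from its neighbour in the order. Brca1 (2.10), Mdc1 (1.65), Nhej1 (1.19), Brip1 (0.77) and Lig4 (0.68) were at the low end. The nuclease partner Rbbp8 (21.8) and the helicase Wrn were thus among the higher levels, and the end-joining ligase Lig4 was lowest. This order depends on the length used. The principal transcript of Atrip has 2572 bases and its merged exons 7152, and for Rbbp8 these lengths are 3523 and 12521. Part of the transcript sequence of some genes occurs in other genes too. This share of 31-base words was 11.2% for H2afx, 16.9% for Atrip, 13.4% for Rpa3, 35.0% for Rad54b and 29.5% for Rmi1, and it was above 5% in 13 of the 46 genes, so the levels of these genes are less certain.

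**Figure D1:**
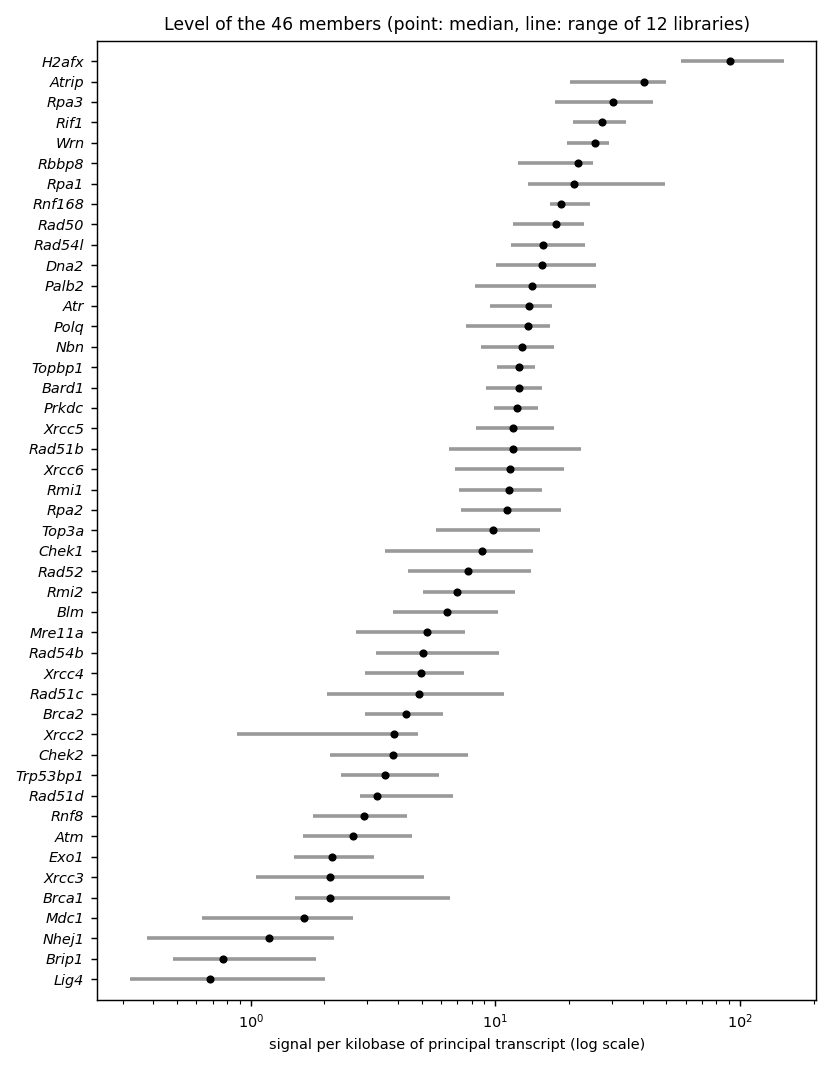
Signal per kilobase of the principal transcript (horizontal axis, log scale) for the 46 genes, ordered by median; the point is the median and the line the range over 12 libraries. H2afx, at a median of 90.8, is the only gene whose range does not overlap that of the next gene down, and Lig4, at 0.68, is lowest.

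The comparison of KO with WT asked whether these genes were expressed at another level in Fancg KO LSK cells. Rpa2 alone of the 40 tested genes (2.5%) had an unadjusted limma p under 0.05, and it was lower in KO. Over all genes tested the share was 3.67% in either direction and 1.69% for lower in KO. After Benjamini-Hochberg adjustment in limma 0 of 40 genes passed 0.05, as did 0% of all genes tested, and each of the 40 had an adjusted p of 0.9996. At an unadjusted p under 0.05 limma called 326 of the 8887 genes. No gene of the 40 had groups that did not overlap, against 0.09% of all genes tested.

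The log2 fold changes of signal + 1, KO minus WT, ran from -0.51 (Rpa2) to 0.37 (Palb2) and were positive for 20 genes and negative for 20. Their median was 0.0036, beside 0.0031 over all genes tested. Rpa2 was the 1 gene whose log2 fold change was beyond 0.5 in size. The data were precise enough to limit the size of a difference: the 95% interval lay within 2-fold for 40 of 40 genes (83.4% of all genes tested) and within 1.5-fold for 18 of 40 (45%, against 35.9%). The SD of the log2 values within a label had a median of 0.36 over the 40 genes, from 0.13 (Topbp1) to 0.78 (Rad51c), and of 0.41 over all genes tested. The 95% interval extended 0.45 on the log2 scale to each side at the median, from 0.27 (Topbp1) to 0.83 (Rad51c).

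**Figure D2:**
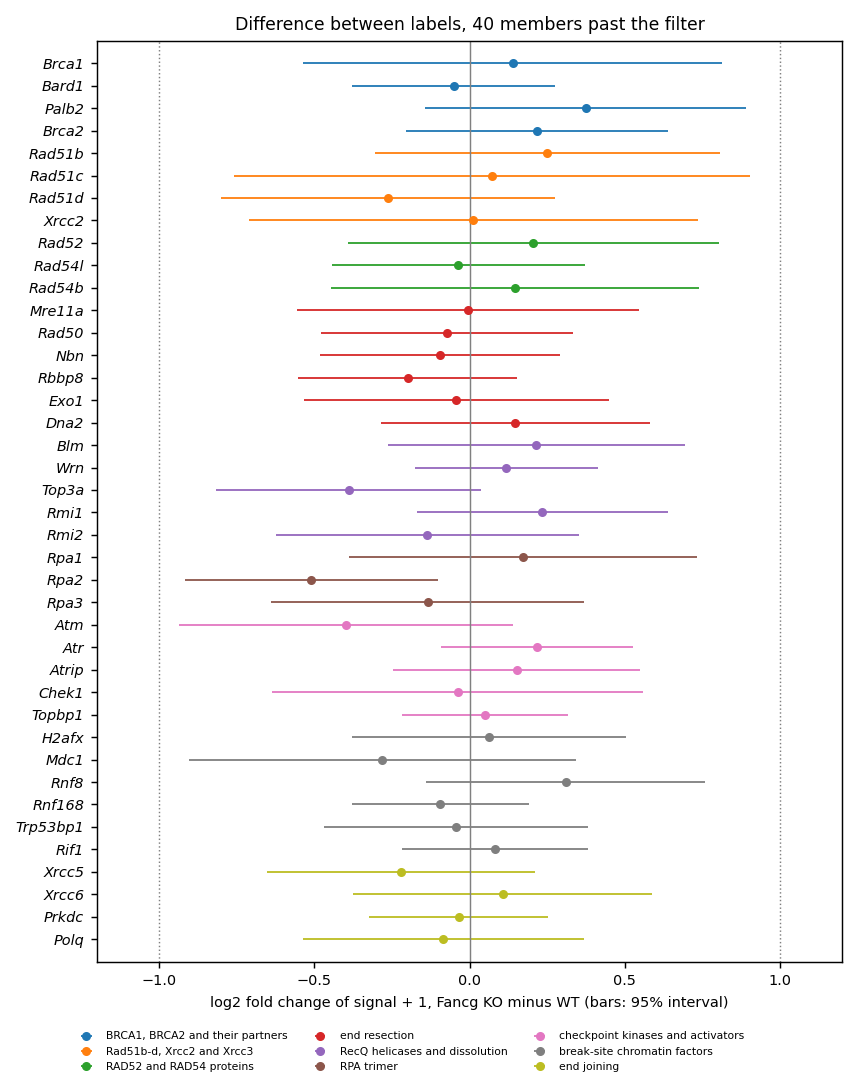
Log2 fold change of signal + 1, Fancg KO minus WT, for the 40 genes past the filter, coloured by role, with 95% intervals from limma; dotted lines mark a 2-fold change. All 40 intervals lie between the dotted lines and the interval of Rpa2 alone leaves out 0.

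**Figure D3:**
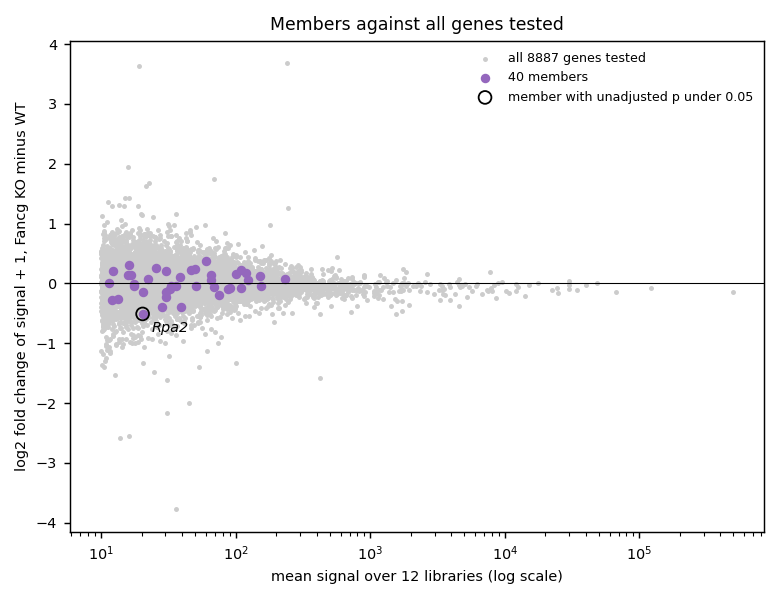
Log2 fold change of signal + 1, Fancg KO minus WT (vertical axis), against the mean signal over 12 libraries (horizontal axis, log scale) for the 8887 genes tested in grey and the 40 genes in purple. The 40 genes lie from -0.51 to 0.37 within the cloud of all genes, and the ring marks Rpa2.

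RPA binds single-stranded DNA as a trimer of RPA1, RPA2 and RPA3, of which RPA2 is phosphorylated by the checkpoint kinases. Rpa2 lies on chromosome 4 from 132768332 to 132778752, plus strand (GRCm38). Its signal was 20.2, 22.4 and 33.6 (lowest, median, highest) in WT and 13.1, 16.3 and 21.1 in KO. The highest KO value, in KO replicate 6, was above the 3 lowest WT values, and the other 5 KO libraries lay below every WT library. The log2 fold change was -0.51 (SE 0.19, 95% interval -0.92 to -0.10, limma p = 0.0174, adjusted p = 0.9996, two-sided exact permutation p = 0.00866). These signals correspond to about 9.17 to 45.8 reads per library. Without WT replicate 4, the highest WT library, the log2 fold change was -0.41 (limma p = 0.0525, exact permutation p = 0.0108). With any other single library left out it ran from -0.45 to -0.58, and limma p stayed under 0.05. The p of limma was 0.164 when all libraries were scaled to an equal total without Lars2 (-0.46).

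The other subunits did not differ in the same direction beyond their spread. The signal of Rpa1, the large DNA-binding subunit, was 69.3, 93.5 and 252 in WT and 72.5, 126 and 153 in KO, with a log2 fold change of 0.17 (SE 0.26, limma p = 0.525, adjusted p = 0.9996, exact permutation p = 0.602). WT replicate 6, at 252, stood far above the other WT libraries, which ended at 98.2, and without it the log2 fold change of Rpa1 was 0.42 (limma p = 0.0375, exact permutation p = 0.0541). Rpa3, the smallest subunit, had a signal of 11.8, 22.5 and 29.6 in WT and 12.7, 19.0 and 23.0 in KO, with a log2 fold change of -0.14 (SE 0.24, limma p = 0.576, exact permutation p = 0.554). The groups of Rpa1 and of Rpa3 overlapped.
The ratio of Rpa1 to Rpa2 signal within a library was 2.77, 3.79 and 12.1 in WT and 5.54, 7.18 and 10.4 in KO. WT replicate 6 gave the highest ratio of all, and the other 5 WT ratios lay below every KO ratio. This is a description, since the ratio follows from the Rpa1 and Rpa2 values already given. In none of the 15 subunit ratios formed within the RPA, Ku, MRN, BRCA1-BARD1, ATR-ATRIP and BLM complexes were the groups apart.

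**Figure D4:**
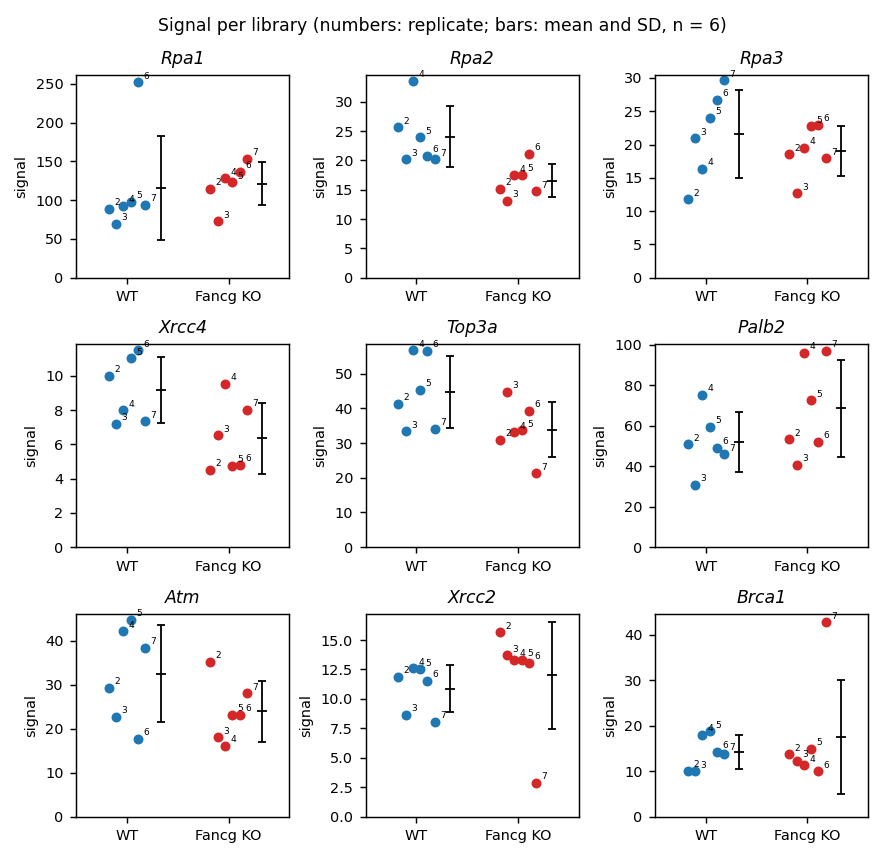
Signal per library (vertical axis, from 0) of 9 genes in the 6 WT (blue) and 6 Fancg KO (red) libraries; small numbers give the replicate and bars the mean and SD of each label. Rpa2 is lower in 5 of 6 KO libraries than in any WT library, while single libraries stand apart for Rpa1 (WT replicate 6), Xrcc2 and Brca1 (both KO replicate 7).

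BRCA1 and its partner BARD1 form a ubiquitin ligase, and PALB2 links BRCA1 to BRCA2. Of the 4 tested genes in this group 3 had a positive log2 fold change and 0 passed the test. Palb2 lies on chromosome 7 from 122107262 to 122132985, minus strand, and had the largest positive difference of the 40 genes. Its signal was 30.8, 49.97 and 75.4 in WT and 40.9, 63.0 and 97.1 in KO. The log2 fold change was 0.37 (SE 0.24, 95% interval -0.14 to 0.89, limma p = 0.145, adjusted p = 0.9996, exact permutation p = 0.199), and the groups overlapped over most of their range. With 1 library left out it ran from 0.24 (without WT replicate 3, limma p = 0.329) to 0.51 (without KO replicate 3, limma p = 0.0499, exact permutation p = 0.0779). Palb2 signal was higher in KO in 6 of 6 same-numbered pairs, though the labels do not say what equal numbers share. The share of all genes tested with 6 of 6 such pairs was not computed. With the replicate number as a block its limma p was 0.0397, and 0 of the 40 genes passed an adjusted p of 0.05. The lowest WT value of Palb2 and its highest KO value came from the libraries low in Y-linked transcripts, WT replicate 3 and KO replicate 7, and without both the log2 fold change was 0.12 (limma p = 0.599, exact permutation p = 0.643).
Brca1 signal was 10.02, 14.1 and 18.8 in WT and 10.002, 13.04 and 42.8 in KO. KO replicate 7, one of the libraries low in Y-linked transcripts, gave the 42.8, and the log2 fold change went from 0.14 with it to -0.15 without it. Bard1 (-0.05) and Brca2 (0.22) had intervals that included 0. Brip1, the helicase that binds BRCA1, was under the filter at 3.35 to 6.83 in WT and 3.41 to 12.9 in KO (exact permutation p = 0.634).

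Rad51b, Rad51c, Rad51d, Xrcc2 and Xrcc3 encode related proteins that act in homologous recombination, and 0 of the 4 tested passed the test. Rad51d had the smallest p of the group. Its signal was 10.2, 12.2 and 23.1 in WT and 9.61, 11.01 and 15.3 in KO (log2 fold change -0.26, SE 0.25, limma p = 0.314, exact permutation p = 0.271). Rad51b, the highest of the group per kilobase, was at 14.2, 25.9 and 28.1 in WT and at 15.9, 26.6 and 49.0 in KO (0.25, SE 0.26, limma p = 0.354, exact permutation p = 0.411). For both genes the medians of the labels lay closer together than the libraries of 1 label.
Rad51c had the widest spread of the 40 genes, from 8.10 to 42.7 over all libraries. Xrcc2 was uniform but for 1 library: its signal was 8.06 to 12.6 in WT and 13.1 to 15.6 in 5 KO libraries, and 2.86 in KO replicate 7. Without KO replicate 7 each KO library was above each WT library for Xrcc2, with a log2 fold change of 0.33 (limma p = 0.152, exact permutation p = 0.00866), against 0.01 with it. This library was singled out after its value had been seen. Xrcc3 was under the filter, at 4.18 to 5.29 in WT and 2.55 to 12.4 in KO (exact permutation p = 0.699).

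RAD52 anneals single strands and the RAD54 proteins are motors that help strand invasion. Of these 3 genes 0 passed the test. Rad52 signal was 7.10, 11.5 and 15.1 in WT and 7.48, 13.1 and 22.6 in KO (log2 fold change 0.20, SE 0.28, limma p = 0.477, exact permutation p = 0.446). Rad54l, the highest of the group per kilobase, was at 35.0, 51.8 and 65.1 in WT and at 35.7, 45.3 and 70.5 in KO (-0.04, SE 0.19, limma p = 0.852, exact permutation p = 0.857). The groups overlapped for both genes, and the KO range of Rad52 reached higher than that of WT. Rad54b (0.14) shares 35.0% of its 31-base words with other genes.

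End resection is begun by MRE11, RAD50 and NBN with CtIP, encoded by Rbbp8, and extended by EXO1 or DNA2. Of the 6 genes 5 had a negative log2 fold change, all small, and 0 passed the test. Rbbp8 had both the smallest p and the highest level per kilobase. Its signal was 66.8, 78.4 and 88.3 in WT and 43.4, 74.6 and 83.4 in KO (log2 fold change -0.20, SE 0.17, 95% interval -0.55 to 0.15, limma p = 0.247, exact permutation p = 0.245). KO replicate 3 and KO replicate 4 lay below every WT library, and the other KO values lay within the WT range. The other 5 ran from -0.10 (Nbn) to 0.15 (Dna2), with Mre11a at 0.00 to 2 decimals, Exo1 at -0.04 and Rad50 at -0.07.

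BLM acts with TOP3A, RMI1 and RMI2 to dissolve joined DNA molecules, and WRN is a related helicase. Top3a had the smallest p of the group and the next smallest after Rpa2 of all 40 genes. It lies on chromosome 11 from 60740058 to 60777365, minus strand. Its signal was 33.4, 43.3 and 56.7 in WT and 21.3, 33.4 and 44.7 in KO. The log2 fold change was -0.39 (SE 0.20, 95% interval -0.82 to 0.04, limma p = 0.0706, adjusted p = 0.9996, exact permutation p = 0.0649). KO replicate 3 and KO replicate 6 lay in the middle of the WT range, and the other KO libraries at its lower end or below it. With 1 library left out the log2 fold change of Top3a ran from -0.47 (without KO replicate 3) to -0.27 (without KO replicate 7). Without WT replicate 3 limma gave p = 0.0410 (exact permutation p = 0.0433), without WT replicate 7 0.0455 (0.0541) and without KO replicate 3 0.0356 (0.0368). In the other 9 such fits the p of limma was above 0.05, up to 0.172 without KO replicate 7. Without both replicate 3 libraries the log2 fold change of Top3a was -0.55 (limma p = 0.0207, exact permutation p = 0.0159).
Wrn, the highest of the group per kilobase, was at 123, 135 and 183 in WT and at 124, 162 and 169 in KO (0.12, SE 0.14, limma p = 0.407, exact permutation p = 0.32). Blm (0.21), Rmi1 (0.23) and Rmi2 (-0.14) had intervals that included 0, and the partners of Top3a had differences of both signs. The ratio of Top3a to Rmi1 signal ran from 0.70 to 1.30 in WT and from 0.52 to 0.91 in KO, and the groups overlapped.

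The checkpoint begins with the kinases ATM and ATR, the latter recruited by ATRIP and switched on by TOPBP1, and continues through CHEK1 and CHEK2. Of the 5 tested genes 0 passed the test. Atm, on chromosome 9 from 53439149 to 53536740, minus strand, had the smallest p. Its signal was 17.6, 33.8 and 44.7 in WT and 16.1, 23.1 and 35.2 in KO (log2 fold change -0.40, SE 0.25, 95% interval -0.94 to 0.14, limma p = 0.137, exact permutation p = 0.16). The groups overlapped over most of their range. WT replicate 6, at 17.6, was lower than all but 1 KO library. With 1 library left out the log2 fold change of Atm ran from -0.29 (without WT replicate 5, limma p = 0.282) to -0.55 (without WT replicate 6, limma p = 0.0353, exact permutation p = 0.0519).
Atrip, the highest of the group per kilobase, was at 52.2, 102 and 128 in WT and at 83.9, 105 and 122 in KO (0.15, SE 0.19, limma p = 0.430, exact permutation p = 0.58). Atr signal was 77.1, 102 and 121 in WT and 92.6, 114 and 139 in KO (0.22, SE 0.15, limma p = 0.155, exact permutation p = 0.117). Atr and Atrip, whose proteins form a pair, had small positive differences and Atm a negative one, none beyond the spread between libraries. The sign of Atrip rested on WT replicate 4, its lowest library, without which its log2 fold change was -0.01. Topbp1 was the steadiest of the 40 genes, at 53.2 to 70.9 in WT and 59.1 to 76.0 in KO (0.05, 95% interval -0.22 to 0.32). Chek1 (-0.04) had overlapping groups, and Chek2 was under the filter at 5.92 to 17.6 in WT and 4.82 to 14.8 in KO (exact permutation p = 0.654).

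At a break the phosphorylated histone H2AX binds MDC1, the ubiquitin ligases RNF8 and RNF168 mark the chromatin, and 53BP1 with RIF1 protects the ends. Of these 6 genes 3 had a positive and 3 a negative log2 fold change, and 0 passed the test. Rnf8, the ligase that MDC1 recruits, had the smallest p of the group and shares 17.0% of its 31-base words with other genes. Its signal was 9.70, 14.2 and 17.8 in WT and 13.1, 17.96 and 23.5 in KO (0.31, SE 0.21, 95% interval -0.14 to 0.76, limma p = 0.163, exact permutation p = 0.0823). H2afx was at 84.5, 123 and 135 in WT and at 79.7, 126 and 209 in KO (0.06, SE 0.21, limma p = 0.768, exact permutation p = 0.727). The groups of Rnf8 overlapped, and the KO range of H2afx held that of WT within it. Mdc1 (-0.28), Rnf168 (-0.09), Trp53bp1 (-0.04) and Rif1 (0.08) completed the group, and Rif1 had the highest signal of the 46 genes at 176 to 292 over all libraries.

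In end joining the Ku pair XRCC5 and XRCC6 holds the ends, the kinase encoded by Prkdc joins it, and XRCC4, LIG4 and NHEJ1 seal them, whereas POLQ joins ends at short repeats. Of the 4 tested genes 1 had a positive log2 fold change and 0 passed the test. Xrcc5 signal was 21.3, 32.1 and 44.3 in WT and 21.7, 25.3 and 38.5 in KO (-0.22, SE 0.20, limma p = 0.291, exact permutation p = 0.262). Polq, the highest of the group per kilobase, was at 81.4, 110 and 141 in WT and at 65.1, 119 and 143 in KO (-0.08, SE 0.21, limma p = 0.697, exact permutation p = 0.708). The labels overlapped over most of their range for both. Xrcc6 (0.11) and Prkdc (-0.04) had intervals that included 0.
Xrcc4, the scaffold of the ligase, was under the filter with about 4.20 to 16.2 reads per library. It lies on chromosome 13 from 89774027 to 90089608, minus strand. Its signal was 7.20, 8.98 and 11.5 in WT and 4.53, 5.67 and 9.51 in KO (log2 fold change -0.49, two-sided exact permutation p = 0.0346). The groups overlapped, and 4 of the KO libraries lay below every WT library. Among the 5519 genes of the table with a mean signal from 1 to under 10, 4.2% had an exact p under 0.05, and Xrcc4 was the only one of the 6 genes under the filter to do so. Lig4 was at 1.61 to 6.99 in WT and 2.50 to 10.1 in KO (exact permutation p = 0.823), and Nhej1 at 0.59 to 1.86 in WT and 0.40 to 2.30 in KO (exact permutation p = 0.216).

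Another 50 genes of double-strand break repair and the checkpoint, from a list drawn up by role, gave a similar picture. Of the 42 tested, 21 had a positive and 21 a negative log2 fold change, with a median of 0.0072, and 1 had an unadjusted limma p under 0.05. That gene was Dclre1c, which encodes the end-processing nuclease Artemis. Its signal was 12.04, 16.6 and 25.04 in WT and 19.2, 27.1 and 41.3 in KO (0.67, SE 0.24, 95% interval 0.17 to 1.17, limma p = 0.0122, adjusted p = 0.9996, exact permutation p = 0.0216).

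Because many of the 46 genes carry E2F-like letters, genes of the cell cycle were set beside them. Of 18 tested S phase genes 0 had an unadjusted limma p under 0.05, with a median log2 fold change of -0.01, and of 20 G2 and M phase genes 0 did, with a median of 0.10. Of 9 tested LSK markers 3 had a positive and 6 a negative log2 fold change, from -0.51 to 0.69, and 1 had an unadjusted limma p under 0.05, beside 3.67% of all genes tested. This was Flt3, a receptor of multipotent progenitors, which was lower in KO (-0.51, limma p = 0.0423, adjusted p = 0.9996, exact permutation p = 0.0628). Of 2 tested megakaryocyte markers 1 was past this threshold, Itga2b, found also on some stem cells, which was higher in KO (0.72, limma p = 0.00597, adjusted p = 0.9996, exact permutation p = 0.00433). None of the 2 B cell, 1 T and NK cell and 5 granulocyte and monocyte markers tested was past it, and the 5 last all had a positive log2 fold change (0.07 to 0.38). The summed signal of the 6 megakaryocyte markers was 38.7 to 89.9 in WT and 40.6 to 264 in KO, with Ppbp under a mean signal of 1. The part of these markers in the values of Rpa2, Top3a, Palb2 or Atm was not tested.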

How the data were processed

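LSK cells of 12 mice were sorted and total RNA was made into libraries with a CATS kit. What the authors deposited is a signal per gene in each library, which by the name of the table and its numbers is an estimated count over a size factor. Kallisto is named per the labels without a version, and the mouse genome build and annotation are not given in the sources used here. The share of values that are whole multiples of the smallest step (tolerance 0.001) was 10.2 to 11.4%, so reads could not be recovered and tests for counts were not used. Depth is approximate. Columns were matched to libraries by title, with 0 left out.

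Values were used without rescaling as log2(signal + 1). A gene was tested if its mean signal reached 10, in limma 3.58.1 in R 4.3.3 (two-sided, empirical Bayes with trend, no covariate), with Benjamini-Hochberg adjustment over all 8887 genes. Single genes also had a two-sided exact permutation test over all 924 divisions of the libraries (462 or 252 with 1 or 2 libraries left out), whose smallest p is 0.00216. A p-value covers the spread between mice. Positions and transcript lengths come from GENCODE M21 (GRCm38), promoters from RefSeq. Gene names matched GENCODE for 35929 of 35999 genes. The script was tested on simulated data.

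The 46 genes, the roles and the other lists were chosen with earlier results of these data known. Values are given in full for genes with an unadjusted p under 0.05 and, in each role, for the tested gene with the smallest p and the one with the highest mean signal per kilobase. Rpa1, Brca1, Rad51c, Xrcc2, Atr, Topbp1, Xrcc4 and the genes under the filter were added after their values were seen. Alternatives were other pseudocounts, filters and scalings, no trend, array weights, a replicate block, and libraries left out. Some results under this rule are not reported here.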

Additional observations from a re-analysis of the deposited data

Results flagged for a closer look

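Each gene was checked in each label for 1 library far from the other 5 by Dixon's test at its 95% critical value. The check used the signal itself and not its log2 values. Of 92 groups 8 were picked out. A rate of 5%, or 4.6 groups, holds for normally distributed values, which was not tested for these signals. The rate over all genes tested was not computed, so the 8 groups cannot be called more than is usual in these libraries. KO replicate 4 held 3 of the 8, and KO replicate 7, one of the libraries low in Y-linked transcripts, held 2.

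In KO replicate 4, Rad51b was at 49.0 where the other KO libraries were at 15.9 to 28.1, and the log2 fold change went from 0.25 to 0.07 without it. Wrn in the same library was at 124 where the others were at 160 to 169 (0.12 to 0.18 without it), and Rnf168 was at 108 where the others were at 74.9 to 86.1 (-0.09 to -0.17 without it). KO replicate 4 had the highest or lowest value for 10 of the 40 tested genes (25%), beside 24.0% of all genes tested.

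In KO replicate 7, Brca1 was at 42.8 where the others were at 10.002 to 15.01, and Xrcc2 was at 2.86 where the others were at 13.1 to 15.6. In WT replicate 6, Rpa1 was at 252 where the others were at 69.3 to 98.2. In WT replicate 4, Trp53bp1 was at 56.8 where the others were at 28.4 to 35.7, and its log2 fold change went from -0.04 to 0.09 without that library. Lig4, which rests on few reads, was at 10.1 in KO replicate 2 where the others were at 2.50 to 4.01.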

How the results depend on the processing

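The count of genes past an adjusted limma p of 0.05 was 0 under each alternative run. The count past an unadjusted p of 0.05 was 1, and it was 0 at a mean signal of at least 50 (Rpa2 is then not tested) and 0 with an equal total without Lars2, 2 with the replicate block (Palb2, with a limma p of 0.0397, and Rpa2) and 2 without both replicate 3 libraries (Rpa2, Top3a). With 1 library left out it ran from 0 (without WT replicate 4) to 3 (without WT replicate 6: Atm, Rpa1 and Rpa2; without KO replicate 3: Palb2, Rpa2 and Top3a). The count of genes whose groups do not overlap was 0, and it ran from 0 to 1 with 1 library left out (Rpa2 without KO replicate 6, Xrcc2 without KO replicate 7) and was 1 (Xrcc2) without the libraries low in Y-linked transcripts. It was not computed for other pseudocounts, scalings, trend, weights or the block. The shares over all genes tested, 3.67% past the unadjusted p and 0.09% without overlap, are those of the main fit. They are not given for the alternatives, so the counts under these have no such share beside them. The median log2 fold change, 0.0036 in the main fit, ran from -0.041 to 0.052 with 1 library left out. Under the other alternatives it ran from -0.0047 to 0.056. Of 391 alternative values of the 16 named genes 382 kept their side of the threshold, 0 reversed a call, and 11 changed sign below it. Rpa2 alone of the 16 was past the threshold in the main fit, so most values had no call to lose. The call of Rpa2 was lost in 2 values, and 7 values of Palb2, Top3a and Atm came past the threshold. The cause of these changes was not tested.

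The labels do not say what same-numbered libraries share. The deviations of these libraries correlated by 0.086 to 0.36, and for 4 of 6 numbers the WT and KO libraries correlated best with each other. The main test used no pairing. Few reads per library limit genes such as Rpa2, Xrcc4 and Nhej1.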
